A study of Mus musculus with 6 samples.

Results

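Palmitate, a saturated fatty acid, was compared with oleate, a monounsaturated one of longer chain, in C2C12 myotubes, the multinucleated muscle cells that a mouse myoblast line forms when serum is lowered. The comparison used the 4 of 6 arrays whose titles name palmitate or oleate, as 2 pairs, 1 in cells transfected with scrambled siRNA and 1 in cells transfected with siRNA against Plin2, which codes for the lipid droplet coat protein perilipin 2. It covered 19938 genes, each read by the brightest, on average, of the probe sets tied to 1 gene symbol. Cells of every group were grown in 10% serum, differentiated in 2% serum and transfected with 10 nM siRNA. The 4 fatty acid groups were scrambled siRNA with oleate, scrambled siRNA with palmitate, Plin2 siRNA with oleate and Plin2 siRNA with palmitate, each at 200 µM for 20 h and with 2.5 fatty acid molecules per molecule of albumin (BSA). Each siRNA also had 1 array with BSA alone, and its level is given beside the fatty acid levels as the background.

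All values are log2 expression levels, so a difference of 1 is a doubling, and each difference is palmitate minus oleate averaged over the pairs (n = 2 pairs for every difference printed). Where the pairs are given apart, the scrambled pair comes first; this is done mainly for genes short of the threshold whose mean came mostly from 1 pair. Each condition had 1 array of 1 cell line, and the labels do not say whether the cultures were separate. The error of a difference joins how the treatment differences of a gene varied between the siRNAs (2 degrees of freedom) with the spread of other genes at its level (9.21), so most of it is borrowed from other genes. The p-values thus cover only the spread among the arrays, which may be technical, and the number of arrays limits the precision. A difference is called where its adjusted p from limma, over all named probe sets, is under 0.05. Array medians lay between 4.94 and 5.02 and correlations between arrays over all probe sets between 0.987 and 0.994; the lowest was of the scrambled palmitate array. All 8 skeletal muscle markers stood above the median gene level of 5.75, at means of 9.44 to 13.62. The measured markers of adipocytes (5 of 6 listed), osteoblasts (3 of 5), leukocytes (5), endothelial cells (4) and hepatocytes (3) all stood below it, at 2.90 to 5.15. Plin2 itself measured 9.29 in BSA, 10.03 in oleate and 10.10 in palmitate with scrambled siRNA, against 6.95, 7.63 and 7.45 with Plin2 siRNA, so each array with its siRNA was below every array without it.

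Animal cells make cholesterol and many fatty acids with enzymes whose genes are switched on by the sterol regulatory element-binding proteins (SREBPs). SREBPs are made in the membrane of the endoplasmic reticulum, where Insig proteins hold them back with their escort Scap when sterol is plentiful; released, they are cut and enter the nucleus. Unsaturated fatty acids are known to lower this processing, mostly that of the form encoded by Srebf1, and to lower transcripts of desaturases, the enzymes that put double bonds into acyl chains. Long-chain fatty acids of both kinds can activate the PPAR receptors, which turn on genes of fatty acid use in muscle.

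Palmitate-treated cells had higher transcripts of 11 of 18 measured cholesterol synthesis enzymes, of the sterol sensor Insig1 and of the desaturases Fads2, Scd2 and Scd1 than oleate-treated cells, and lower transcripts of the ubiquitin ligase gene Rnf145, the galactosyltransferase gene B4galt5 and the pyruvate dehydrogenase kinase gene Pdk4. In all, 30 genes were called higher with palmitate (0.15% of all genes) and 26 lower (0.13%). The higher genes differed by 0.45 to 1.23 (median 0.72) and the lower ones by 0.47 to 1.17 in size (median 0.78). All 56 had the same direction in both pairs, which a call nearly requires with 2 pairs. Of the 30 higher genes, 18 belonged to the gene lists described below, among them 11 enzymes of cholesterol synthesis. Of the 26 lower genes 5 did. The lists hold 602 measured genes of 19938. They were chosen with earlier results of these data known, so this overlap is a description and not a test. The calls depend on how the spread was estimated. Limma called 0 genes with no trend, when all probe sets were fitted, or with no moderation. Genes with an unadjusted p under 0.05 were then 1539, 1123 and 1200, against 1818 as fitted. Where nothing differs, a share of about 0.05 of the 19938 genes would fall under that p. The count was 24 after quantile normalization, and between 28 without the scrambled palmitate array and 462 without the Plin2 siRNA oleate array, with 97 without scrambled oleate and 387 without Plin2 siRNA palmitate.

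Counts that need no model were made beside the test. In them, 28.4% of all genes stood above 0 in both pairs and 23.3% below 0 in both. Over the 6646 genes with the highest signal these shares were 24.8% and 31.1%. They are the background for the counts of each gene list below. A difference of at least 0.5 in both pairs was found for 29 genes in the direction of palmitate (0.145%), of which 10 are cholesterol synthesis enzymes, and for 27 in the direction of oleate (0.135%), of which 0 are. Over all genes the differences of the pairs were only weakly related, with Pearson r = 0.10 (0.21 over the 9969 genes above the median level), a description across genes of arrays that share no sample but may share a batch. The scrambled pair was the more spread, with an SD of 0.25 against 0.19. It was also shifted by level: over the 6646 genes with the lowest signal its median was 0.09 and that of the Plin2 siRNA pair -0.01. Over the 6646 with the highest signal they were -0.02 and -0.01.

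**Figure D1:**
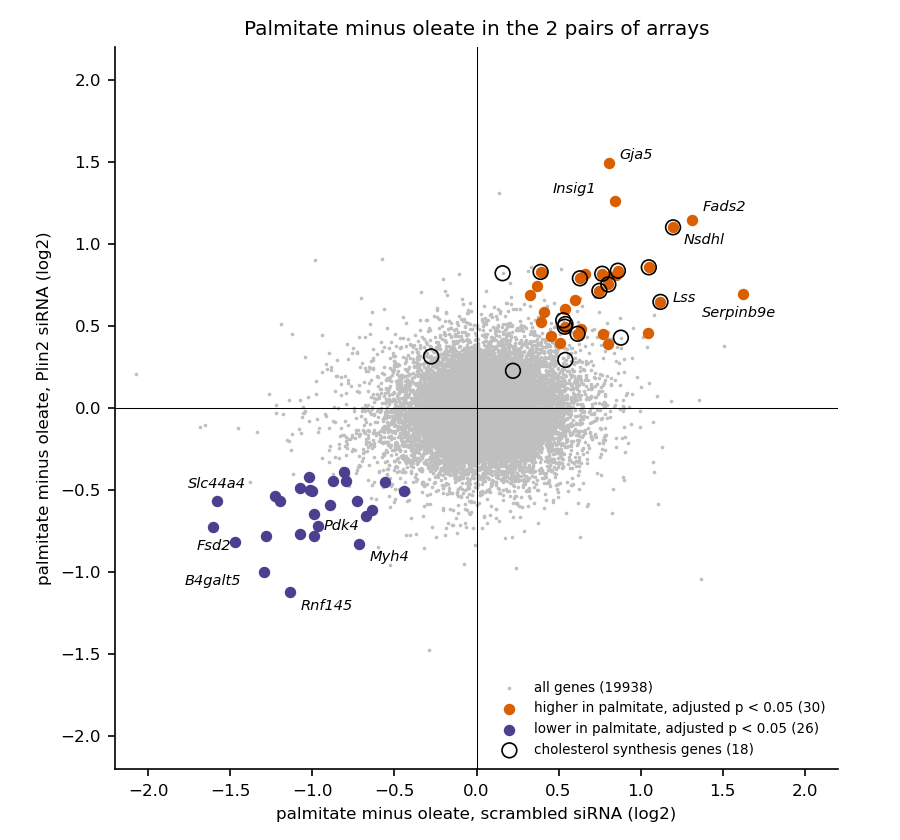
Palmitate minus oleate (log2) in the scrambled pair (x axis) against the same difference in the Plin2 siRNA pair (y axis), 1 point a gene over 19938 genes, with the called genes in colour and cholesterol synthesis genes ringed; 1 gene lies outside the axes. The 30 higher genes lie in the upper right and the 26 lower genes in the lower left, and most of the lower genes lie further from 0 along the scrambled axis.

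The early part of cholesterol synthesis, from acetyl units to squalene epoxide, had 8 measured enzymes, and 5 were called higher with palmitate and 0 lower. All 8 stood above 0 in both pairs, with a median difference of 0.57 (0.58 and 0.62 in the scrambled and Plin2 siRNA pairs) against 0.01 over all genes. Fdps, which makes farnesyl diphosphate, measured 10.22 in BSA, 9.44 in oleate and 10.25 in palmitate with scrambled siRNA, against 9.63, 9.13 and 9.88 with Plin2 siRNA. Its difference was 0.78 (SE 0.09, adjusted p = 0.0038), and both palmitate arrays were higher than both oleate arrays. Mvd, the decarboxylase that ends the mevalonate steps, measured 8.75 in BSA, 7.99 in oleate and 8.73 in palmitate with scrambled siRNA, against 8.28, 7.94 and 8.66 with Plin2 siRNA. It differed by 0.73 (SE 0.11, adjusted p = 0.030). Here too the palmitate arrays did not overlap the oleate arrays, and BSA lay near or below palmitate. Hmgcs1, which makes HMG-CoA, differed by 0.52 (SE 0.08, adjusted p = 0.030), and squalene epoxidase, Sqle, by 0.53 (SE 0.08, adjusted p = 0.031). For Sqle the arrays did overlap, with 9.36 in palmitate with Plin2 siRNA and 9.38 in oleate with scrambled siRNA. The share of all genes without such overlap was not counted. Squalene synthase, Fdft1, differed by 0.61 (SE 0.10, adjusted p = 0.042) at its brighter probe set and by 0.78 at its second. The enzymes that did not pass were the mevalonate kinase Mvk at 0.53 (adjusted p = 0.076), the next kinase Pmvk at 0.65 (adjusted p = 0.12) and the isomerase Idi1 at 0.49 (pairs 0.16 and 0.82, adjusted p = 0.21).

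The late part, from lanosterol to cholesterol, had 10 measured enzymes, of which 6 were called higher and 0 lower; 9 stood above 0 in both pairs, with a median of 0.75 (0.70 and 0.72). The largest difference was that of Nsdhl, a dehydrogenase that removes methyl groups from the sterol ring, which measured 10.45 in BSA, 9.38 in oleate and 10.58 in palmitate with scrambled siRNA, against 10.07, 9.41 and 10.51 with Plin2 siRNA. It was 2.22-fold higher with palmitate, a difference of 1.15 (SE 0.10, adjusted p = 0.00096). Palmitate stood above BSA in both siRNAs, and oleate stood well below both. Tm7sf2, a sterol reductase of the same stretch, measured 8.22 in BSA, 7.45 in oleate and 8.50 in palmitate with scrambled siRNA, against 8.31, 7.76 and 8.62 with Plin2 siRNA. The gene differed by 0.95 (SE 0.10, adjusted p = 0.002). Lanosterol synthase, Lss, measured 7.99 in BSA, 6.996 in oleate and 8.12 in palmitate with scrambled siRNA, against 7.41, 6.93 and 7.57 with Plin2 siRNA. Its difference was 0.88 (SE 0.13, adjusted p = 0.025), so its scrambled pair was the wider. The demethylase Cyp51 differed by 0.79 (SE 0.08, adjusted p = 0.0023), the methylsterol oxidase Msmo1 by 0.71 (SE 0.08, adjusted p = 0.0027) and the ketoreductase Hsd17b7 by 0.85 (SE 0.10, adjusted p = 0.0038). In each of these, palmitate was above oleate in both siRNAs.

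Members that did not pass were Sc5d at 0.53 (adjusted p = 0.073), Lbr at 0.42 (adjusted p = 0.11), Ebp at 0.22 (adjusted p = 0.46) and Dhcr7. Dhcr7, the last reductase of one branch, was the exception in the list, at 0.02 (95% interval -0.27 to 0.30, adjusted p = 0.98). It measured 9.53 in oleate and 9.26 in palmitate with scrambled siRNA, and 9.07 and 9.39 with Plin2 siRNA, so its pairs went opposite ways.

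**Figure D2:**
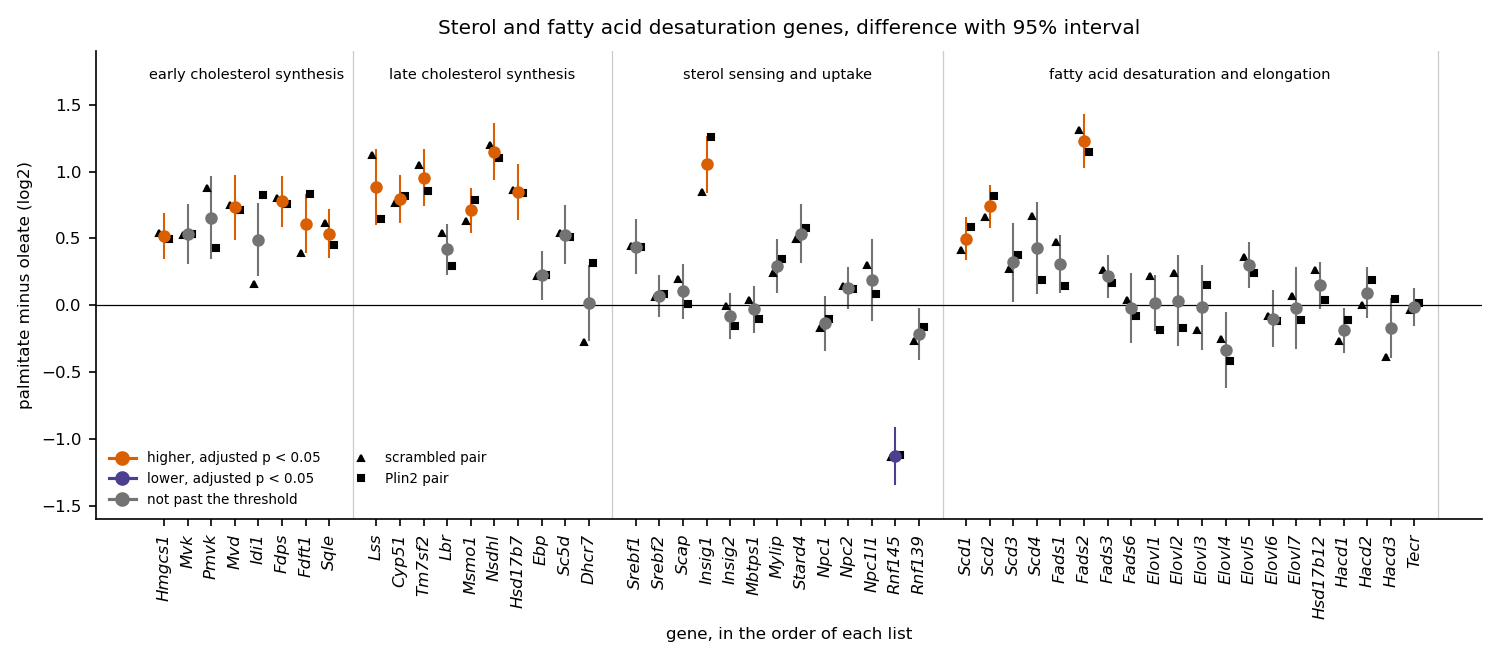
Palmitate minus oleate (log2, y axis) for the measured genes of 4 lists (early and late cholesterol synthesis, sterol sensing and uptake, desaturation and elongation), along the x axis. Circles are the mean of the pairs with its 95% interval, coloured where called, and triangles and squares are the scrambled and Plin2 siRNA pairs; the sterol enzymes lie above 0 in both pairs except Dhcr7, and Rnf145 lies lowest.

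Sensing and uptake genes were mixed, with 1 of 13 called higher and 1 lower, 8 above 0 in both pairs, 4 below, and a median of 0.10. Insig1, which holds SREBPs in the endoplasmic reticulum and is itself an SREBP target, measured 11.03 in BSA, 10.29 in oleate and 11.13 in palmitate with scrambled siRNA, against 10.46, 9.68 and 10.94 with Plin2 siRNA. Its difference was 1.05 (SE 0.10, adjusted p = 0.0013), or 2.07-fold. Rnf145, an endoplasmic reticulum ubiquitin ligase that acts on sterol synthesis and on Scap, ran the other way and measured 7.85 in BSA, 8.76 in oleate and 7.63 in palmitate with scrambled siRNA, against 7.82, 8.50 and 7.38 with Plin2 siRNA. It was 2.18-fold higher with oleate, a difference of -1.13 (SE 0.10, adjusted p = 0.00096), and in both siRNAs palmitate lay a little below BSA. For the regulators themselves, Srebf2 differed by 0.07 (95% interval -0.09 to 0.23, adjusted p = 0.85), Srebf1 by 0.44 (95% interval 0.23 to 0.64, adjusted p = 0.12), Scap by 0.10 (95% interval -0.10 to 0.31, adjusted p = 0.82) and Insig2 by -0.08 (95% interval -0.26 to 0.09, adjusted p = 0.84). In this fit, with most of the error borrowed from other genes, the intervals for Srebf2, Scap and Insig2 did not reach a difference of 0.5 in size. The sterol carrier Stard4 stood at 0.54 (adjusted p = 0.067).

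Desaturation and elongation genes had 3 of 20 called higher and 0 lower, 9 above 0 in both pairs and 3 below, with a median of 0.06. Fads2, which starts the desaturation of polyunsaturated chains, had the largest difference of all called genes. It measured 9.92 in BSA, 8.95 in oleate and 10.26 in palmitate with scrambled siRNA, against 8.93, 8.28 and 9.42 with Plin2 siRNA, so it was 2.35-fold higher with palmitate, with a difference of 1.23 (SE 0.09, adjusted p = 0.00069). Both palmitate arrays were above their BSA arrays and both oleate arrays below. Scd2, a stearoyl-CoA desaturase that puts the first double bond into saturated chains, measured 12.39 in BSA, 11.67 in oleate and 12.33 in palmitate with scrambled siRNA, against 12.27, 11.63 and 12.45 with Plin2 siRNA. It differed by 0.74 (SE 0.07, adjusted p = 0.0018). Its relative Scd1 differed by 0.50 (SE 0.07, adjusted p = 0.025). Fads1, the neighbour of Fads2 in the same route, stood at 0.31 (pairs 0.47 and 0.14, adjusted p = 0.37), and the elongases Elovl5 at 0.30 (adjusted p = 0.24) and Elovl6 at -0.10 (adjusted p = 0.84).

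The genes of fatty acid synthesis had 1 of 14 called higher and 0 lower, 6 above 0 in both pairs and 4 below, and a median of 0.08. Mid1ip1, a partner of acetyl-CoA carboxylase, was the called gene at 0.46 (SE 0.08, adjusted p = 0.049), but its second, dimmer probe set stood at -0.01 (adjusted p = 0.99). Acly, which supplies cytosolic acetyl-CoA, stood at 0.51 (adjusted p = 0.082) and the citrate carrier Slc25a1 at 0.42 (adjusted p = 0.15). The synthase Fasn measured 9.02 in BSA, 8.73 in oleate and 8.68 in palmitate with scrambled siRNA, against 8.66, 8.74 and 8.41 with Plin2 siRNA. The gene differed by -0.19 (95% interval -0.41 to 0.04, adjusted p = 0.64), below 0 in both pairs. Acetyl-CoA carboxylase, Acaca, stood at -0.10 (pairs -0.04 and -0.16, adjusted p = 0.85) and the acetyl-CoA synthetase Acss2 at 0.25 (adjusted p = 0.54). The list of targets of LXR, the nuclear receptor for oxidised sterols, is not complete. Rnf145, Scd1 and Srebf1 were counted only in other lists. Of the 11 listed and measured targets 0 were called. In both pairs 4 of them stood above 0 and 4 below, with a median of 0.10 (0.18 and -0.07). That median turned negative without either scrambled fatty acid array, at -0.07 without oleate and -0.03 without palmitate. The lipid transfer protein gene Pltp stood at -0.44 (adjusted p = 0.17), the ligase gene Mylip at 0.29 (adjusted p = 0.36), Lpcat3 at 0.18 (adjusted p = 0.57) and the apolipoprotein gene Apoe at 0.22 (adjusted p = 0.60).

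The levels in BSA, from 1 array for each siRNA, place the sterol genes relative to albumin alone. In the early enzymes the list median of oleate minus BSA was -0.52 with scrambled and -0.37 with Plin2 siRNA, and that of palmitate minus BSA 0.01 and 0.24. In the late enzymes these were -0.64 and -0.42 for oleate, and 0.09 and 0.24 for palmitate. Of the 30 genes higher with palmitate, 24 had a BSA level closer to palmitate than to oleate in both siRNAs, 0 closer to oleate in both and 6 neither. The 26 lower genes were divided, with 8 closer to palmitate in both siRNAs, 8 closer to oleate and 10 neither. The BSA level lay between the fatty acids in both siRNAs for 23 higher and 23 lower genes. These values share arrays with the comparison of the fatty acids and carry no test. The same counts were not made over all genes, and calls pick genes whose fatty acid levels lie far apart. The counts therefore describe the called genes only.

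**Figure D3:**
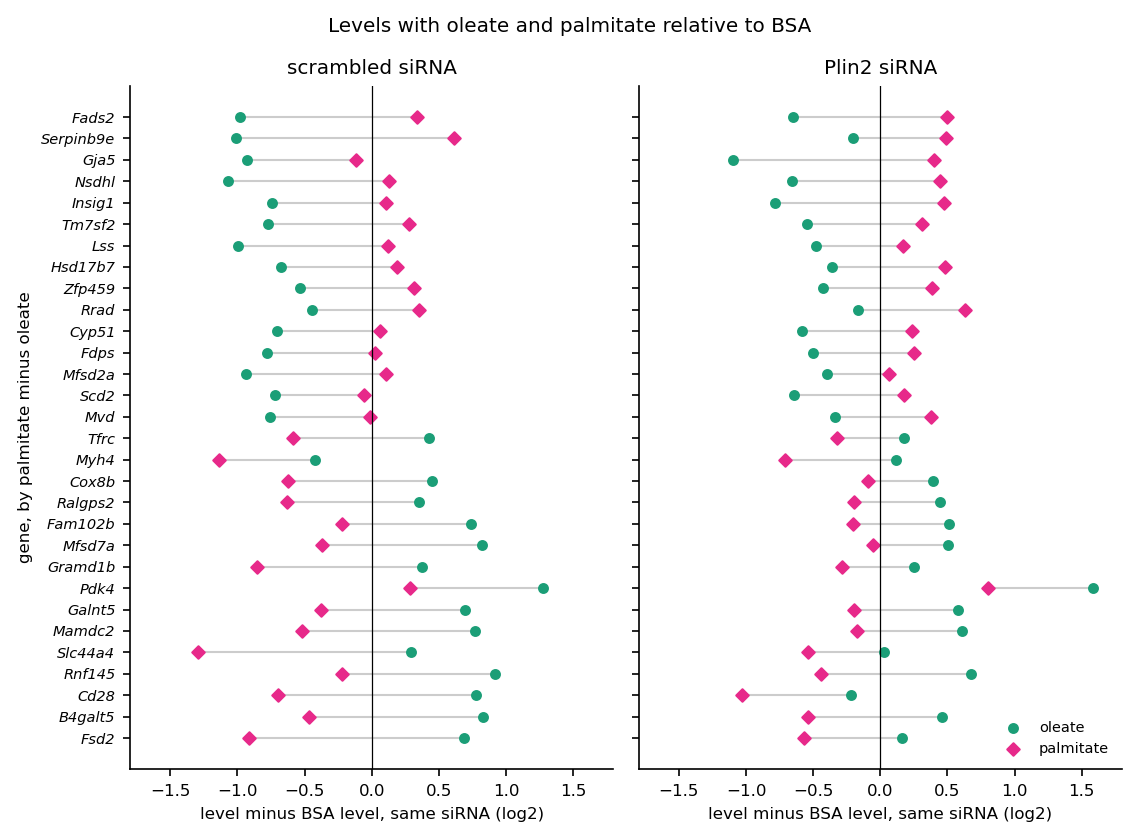
Level with oleate (circles) and palmitate (diamonds) minus the BSA level of the same siRNA (x axis, log2) for the 15 called genes with the largest difference in each direction (y axis), 1 panel for each siRNA, 1 array a point. Oleate lies left of the BSA line at 0 for all the higher genes, and palmitate lies left of oleate for all the lower ones.

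Promoter windows from the RefSeq table (GRCm38.p6) run from 250 bases before to 50 after each gene's start and are shown 5′ to 3′ on the gene's strand, for the 4 sterol or desaturase genes with the lowest p that the table holds, and for Pdk4. Capitals mark matches, on either strand, to 4 motifs: the sterol regulatory element TCACNCCAC, the CCAAT box CCAAT, the E-box CACGTG and the direct repeat AGGTCA, 1 base, AGGTCA. The window of Hmgcs1 was added after the search because it holds the sterol element; Rnf145 has 3 listed starts, and the first is shown.
Fads2, chr19:10101454-10101753 (- strand): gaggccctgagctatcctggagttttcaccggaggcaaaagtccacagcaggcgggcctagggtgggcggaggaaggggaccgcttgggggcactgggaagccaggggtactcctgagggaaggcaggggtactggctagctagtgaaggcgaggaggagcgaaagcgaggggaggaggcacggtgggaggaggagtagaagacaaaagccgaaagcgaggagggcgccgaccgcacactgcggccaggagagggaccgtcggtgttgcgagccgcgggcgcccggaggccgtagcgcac
Nsdhl, chrX:72918271-72918570 (+ strand): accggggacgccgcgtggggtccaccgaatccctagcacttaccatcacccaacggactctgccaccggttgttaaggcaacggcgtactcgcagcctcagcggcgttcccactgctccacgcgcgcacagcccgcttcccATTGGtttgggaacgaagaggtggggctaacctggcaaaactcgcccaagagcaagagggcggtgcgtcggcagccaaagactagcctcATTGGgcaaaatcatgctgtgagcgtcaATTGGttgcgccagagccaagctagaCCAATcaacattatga
Rnf145, chr11:44518706-44519005 (+ strand): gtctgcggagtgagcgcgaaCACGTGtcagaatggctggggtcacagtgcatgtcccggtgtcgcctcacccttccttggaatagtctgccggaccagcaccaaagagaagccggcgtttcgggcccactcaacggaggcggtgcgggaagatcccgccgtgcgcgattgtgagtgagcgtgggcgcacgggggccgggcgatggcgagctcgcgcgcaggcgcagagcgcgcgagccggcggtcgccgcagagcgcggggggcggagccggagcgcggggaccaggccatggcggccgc
Insig1, chr5:28071162-28071461 (+ strand): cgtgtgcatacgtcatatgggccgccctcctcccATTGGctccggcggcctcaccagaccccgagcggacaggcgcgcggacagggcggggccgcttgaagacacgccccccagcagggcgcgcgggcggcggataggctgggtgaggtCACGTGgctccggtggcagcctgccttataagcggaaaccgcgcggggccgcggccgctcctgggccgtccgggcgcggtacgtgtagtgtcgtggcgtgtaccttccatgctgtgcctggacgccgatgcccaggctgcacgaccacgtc
Pdk4, chr6:5496229-5496528 (- strand): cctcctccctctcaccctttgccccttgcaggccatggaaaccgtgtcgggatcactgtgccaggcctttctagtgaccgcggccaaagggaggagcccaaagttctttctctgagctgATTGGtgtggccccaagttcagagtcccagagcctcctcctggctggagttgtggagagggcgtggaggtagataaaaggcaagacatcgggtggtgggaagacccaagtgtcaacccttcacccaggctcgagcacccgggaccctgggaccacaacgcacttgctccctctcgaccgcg
Hmgcs1, chr13:119690101-119690400 (+ strand): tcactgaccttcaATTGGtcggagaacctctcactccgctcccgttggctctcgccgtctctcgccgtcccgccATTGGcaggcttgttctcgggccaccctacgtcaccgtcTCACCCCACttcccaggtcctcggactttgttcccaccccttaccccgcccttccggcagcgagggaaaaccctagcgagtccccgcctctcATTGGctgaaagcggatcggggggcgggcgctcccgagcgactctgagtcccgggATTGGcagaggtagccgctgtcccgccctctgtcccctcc

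The Fads2 window had 0 matches, that of Nsdhl 4 CCAAT boxes, that of Rnf145 1 E-box, that of Insig1 1 CCAAT box and 1 E-box, that of Pdk4 1 CCAAT box, and that of Hmgcs1 1 sterol element and 4 CCAAT boxes. Of the 18 measured cholesterol synthesis genes 15 had a window, and each of the 15 held a CCAAT box; 37.4% of all 32851 windows, or 41.1% of 27025 genes, do. The sterol element in this strict spelling was in 1 of the 15 (1.44% of all genes) and the E-box in 3 (8.09%). Among the 30 genes higher with palmitate, 22 had a window, and 12 held a CCAAT box (54.5%), 5 an E-box (22.7%) and 1 the sterol element (4.55%). Among the 26 lower genes, 22 had a window, and 7 held a CCAAT box (31.8%), 2 an E-box (9.09%) and 0 the sterol element. The direct repeat was in 0 of either group and in 0.0481% of all genes. A match describes letters in a window, and no match says only that these letters are not there.

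Among PPAR-responsive genes of fatty acid use, Pdk4 was the 1 gene called, and it was higher with oleate. In that list 0 of 27 were called higher and 1 lower, with 6 above 0 in both pairs, 10 below and a median of -0.06. Pdk4, the kinase that turns off pyruvate dehydrogenase and so spares glucose, measured 7.86 in BSA, 9.14 in oleate and 8.14 in palmitate with scrambled siRNA, against 7.42, 9.01 and 8.23 with Plin2 siRNA. Oleate was 1.85-fold above palmitate, a difference of -0.89 (SE 0.12, adjusted p = 0.011), and every fatty acid array was above its BSA array. Angptl4, a secreted inhibitor of lipoprotein lipase, measured 8.41 in BSA, 10.73 in oleate and 10.43 in palmitate with scrambled siRNA, against 7.70, 10.52 and 10.06 with Plin2 siRNA, and its difference of -0.38 (95% interval -0.62 to -0.15, adjusted p = 0.29) did not pass. Cpt1a, the gate of fatty acid entry into mitochondria, measured 7.89 in BSA, 9.31 in oleate and 9.12 in palmitate with scrambled siRNA, against 8.20, 9.59 and 9.33 with Plin2 siRNA. Its difference was -0.22 (95% interval -0.40 to -0.04, adjusted p = 0.46). For both genes the fatty acid arrays lay further above BSA than they lay apart. Plin2 differed by -0.06 (95% interval -0.27 to 0.16, adjusted p = 0.92), with pairs of opposite sign. The uptake receptor Cd36 stood at -0.90 (adjusted p = 0.35), made of -1.69 with scrambled siRNA and -0.12 with Plin2 siRNA, so it came mostly from 1 pair, and the regulator of redox Txnip stood at -0.33 (adjusted p = 0.35).

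Mitochondrial fatty acid oxidation genes had 0 of 21 called. In both pairs 15 stood below 0 (71.4%, against 23.3% of all genes) and 0 above (against 28.4%). Their median was -0.16 (-0.15 and -0.07), with a range of -0.48 to 0.06. The list is bright, with a median level of 9.61, and of the 6646 brightest genes 31.1% stood below 0 in both pairs. The part of level in these counts was not tested. Acaa2, the thiolase of the last step, measured 9.38 in BSA, 10.18 in oleate and 9.37 in palmitate with scrambled siRNA, against 9.49, 9.99 and 9.82 with Plin2 siRNA. It differed by -0.48 (pairs -0.81 and -0.16, adjusted p = 0.21). The dehydrogenase Acadl stood at -0.25 (adjusted p = 0.38), Ech1 at -0.28 (adjusted p = 0.35) and the acetyl carrier enzyme Crat at -0.24 (adjusted p = 0.38). None of these members passed the threshold.

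**Figure D4:**
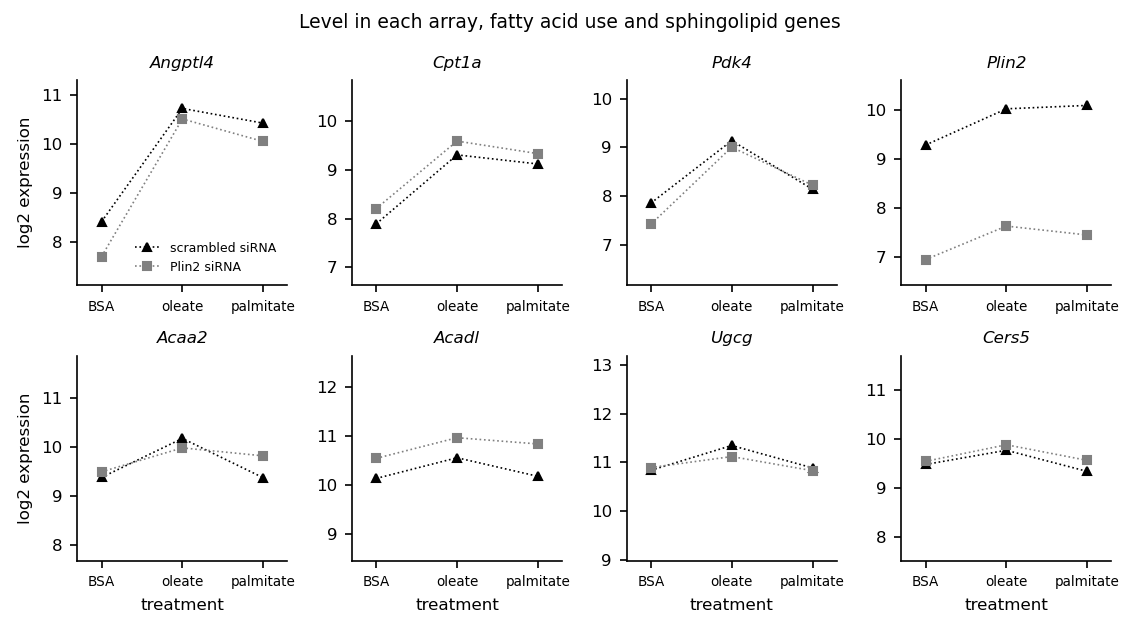
Log2 expression (y axis) in each of the 6 arrays by treatment (x axis) for 8 genes of fatty acid use, lipid droplets and sphingolipids, with triangles for scrambled and squares for Plin2 siRNA; every panel spans the same log2 range. Angptl4 and Cpt1a are above BSA with both fatty acids, Pdk4 is highest with oleate, and Plin2 is lower throughout with its siRNA.

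In lipid droplet and triglyceride turnover 1 of 27 genes was called higher and 0 lower, with 4 above 0 in both pairs, 12 below and a median of -0.04. The called gene was Lpin3, a lipin that makes diacylglycerol from phosphatidate, which measured 8.47 in BSA, 8.18 in oleate and 8.72 in palmitate with scrambled siRNA, against 8.32, 7.86 and 8.47 with Plin2 siRNA. The gene differed by 0.57 (SE 0.09, adjusted p = 0.036). The acyltransferase Agpat3 stood at -0.49 (adjusted p = 0.054), just outside the threshold, the lipase inhibitor G0s2 at 0.41 (adjusted p = 0.35) and the acyltransferase Gpam at -0.22 (adjusted p = 0.44). Phospholipid genes had 0 of 28 called, with 7 above and 10 below 0 in both pairs and a median of -0.03; Lpcat1, which reacylates lysophosphatidylcholine, stood at -0.60 (adjusted p = 0.11), the cholinephosphotransferase Chpt1 at -0.43 (pairs -0.67 and -0.19, adjusted p = 0.24), Mboat1 at -0.45 (pairs -0.68 and -0.22, adjusted p = 0.28) and Tlcd1 at 0.36 (adjusted p = 0.40).

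Palmitate is a substrate for the first step of ceramide synthesis, and ceramides are the core of the sphingolipids. Of 31 sphingolipid genes 0 were called, with a median of -0.09 (-0.10 in both pairs). In both pairs 16 stood below 0 (51.6%) and 1 above (3.2%). Among the 6646 brightest genes, where the list's median level of 7.69 lies, these shares were 31.1% and 24.8%. The part of level was not tested. The ceramide synthase Cers5 measured 9.77 in oleate and 9.34 in palmitate with scrambled siRNA, and 9.88 and 9.56 with Plin2 siRNA. Its difference was -0.38 (adjusted p = 0.12). Glucosylceramide synthase, Ugcg, measured 11.35 in oleate and 10.89 in palmitate with scrambled siRNA, and 11.12 and 10.83 with Plin2 siRNA. It differed by -0.37 (adjusted p = 0.12), the reductase Kdsr stood at -0.38 (adjusted p = 0.23) and Cers6 at -0.28 (adjusted p = 0.32). Called genes outside that list, grouped here after their values were seen, act on the same lipids. B4galt5, which turns glucosylceramide into lactosylceramide, measured 8.75 in BSA, 9.58 in oleate and 8.29 in palmitate with scrambled siRNA, against 8.82, 9.28 and 8.28 with Plin2 siRNA. It was 2.21-fold higher with oleate, a difference of -1.15 (SE 0.10, adjusted p = 0.00096). The transfer protein gene Cert1, whose product carries ceramide to the Golgi, differed by -0.72 (SE 0.12, adjusted p = 0.036). Diacylglycerol kinase and protein kinase C genes had 0 of 15 called, 2 above and 6 below 0 in both pairs, and a median of -0.05, with the kinases Dgke at -0.48 (pairs -0.92 and -0.04, adjusted p = 0.47), Dgkz at -0.21 (adjusted p = 0.55), Dgkd at -0.14 (adjusted p = 0.69) and Prkcb at 0.22 (adjusted p = 0.73).

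In the lists of stress and inflammatory genes 1 gene was called, the chemokine gene Ccl7. Of 26 ER chaperone and degradation genes 0 were called, with a median of 0.06. In both pairs 12 stood above 0 (46.2%) and 1 below (3.8%). Of the 6646 brightest genes, where the list's median level of 9.94 lies, 24.8% stood above and 31.1% below. The part of level was not tested. The chaperone Hyou1 stood at 0.39 (adjusted p = 0.14), Herpud1 at 0.23 (adjusted p = 0.29), Sdf2l1 at 0.29 (pairs 0.53 and 0.05, adjusted p = 0.47) and Hspa5 (BiP) at 0.16 (adjusted p = 0.48). Targets of ATF4 and CHOP had 0 of 32 called, 10 above and 4 below, with a median of 0.06 that became -0.06 without scrambled oleate. Ddit3, which codes for CHOP, differed by -0.06 (95% interval -0.31 to 0.19, adjusted p = 0.93), the lipoprotein receptor gene Vldlr by -0.42 (adjusted p = 0.17), the serine enzyme gene Shmt2 by 0.25 (adjusted p = 0.37), Stc2 by 0.36 (pairs 0.58 and 0.15, adjusted p = 0.48) and Ddit4 by 0.44 (pairs 0.88 and -0.004, adjusted p = 0.48). Atf3 stood at 0.45 (adjusted p = 0.51), made of 0.90 with scrambled siRNA and 0.001 with Plin2 siRNA. NF-kB and inflammatory genes had 0 of 30 called higher and 1 lower, 10 above and 9 below, and a median of -0.02. Ccl7 measured 6.94 in BSA, 7.76 in oleate and 6.76 in palmitate with scrambled siRNA, against 7.21, 7.64 and 7.13 with Plin2 siRNA, so it was higher with oleate, a difference of -0.75 (SE 0.13, adjusted p = 0.046). Cxcl5 stood at -0.62 (adjusted p = 0.18), Ccl2 at -0.42 (adjusted p = 0.37), Cx3cl1 at -0.26 (adjusted p = 0.47), and Il6 at 0.12 (95% interval -0.19 to 0.42, adjusted p = 0.88).

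Interferon-stimulated genes had 0 of 28 called, 14 above 0 in both pairs and 2 below, with a median of 0.13 made of 0.24 and 0.03. The median level of the list was 4.94, among the 6646 genes of middle signal, over which the medians of the pairs were 0.06 and -0.02. The part of that shift in the list was not tested. Ifit1, an antiviral protein gene, stood at 0.94 (adjusted p = 0.19), made of 1.51 with scrambled siRNA and 0.38 with Plin2 siRNA. Oas1a stood at 0.49 (pairs 0.91 and 0.08, adjusted p = 0.47), Cxcl10 at 0.40 (pairs 0.78 and 0.01, adjusted p = 0.54) and Ifit3 at 0.32 (pairs 0.55 and 0.08, adjusted p = 0.56). NRF2 and antioxidant genes had 0 of 23 called, 14 above (60.9%) and 2 below (8.7%), and a median of 0.11. Their median level was 8.85, and of the 6646 brightest genes 24.8% stood above and 31.1% below. The part of level was not tested. The glutathione transferase Gsta4 stood at 0.70 (adjusted p = 0.40), made of 1.36 with scrambled siRNA and 0.05 with Plin2 siRNA, the pentose phosphate enzyme gene Pgd at 0.31 (adjusted p = 0.29), the heme oxygenase gene Hmox1 at 0.21 (adjusted p = 0.48) and catalase, Cat, at 0.21 (adjusted p = 0.52).

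Oxidative phosphorylation genes had 0 of 47 called higher, 1 lower, 3 above 0 in both pairs, 33 below, and a median of -0.13 (-0.18 and -0.09). The called gene was Cox8b, a muscle subunit of cytochrome c oxidase, which measured 8.99 in BSA, 9.44 in oleate and 8.36 in palmitate with scrambled siRNA, against 9.37, 9.76 and 9.28 with Plin2 siRNA. The gene differed by -0.78 (SE 0.13, adjusted p = 0.036). Another muscle subunit, Cox7a1, stood at -0.53 (pairs -0.84 and -0.22, adjusted p = 0.18) and the complex I genes Ndufb5 at -0.30 (adjusted p = 0.21) and Ndufb9 at -0.32 (adjusted p = 0.25). This list sits at the bright end, with a median level of 10.46, where 31.1% of genes stood below 0 in both pairs and 24.8% above; the part of level in the list's median was not tested.

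Contractile and differentiation genes had 0 of 53 called higher and 1 lower, with 10 above 0 in both pairs, 22 below and a median of -0.04 (-0.13 and 0.01); it was 0.01 without scrambled palmitate. Myh4, the fastest myosin heavy chain, measured 7.83 in BSA, 7.41 in oleate and 6.70 in palmitate with scrambled siRNA, against 7.11, 7.23 and 6.40 with Plin2 siRNA. Its difference was -0.77 (SE 0.13, adjusted p = 0.048). Both palmitate arrays were the lowest of their siRNA. The calcium pump Atp2a1 stood at -0.46 (adjusted p = 0.061), the transcription factor Mef2a at -0.44 (adjusted p = 0.057) and Myoz1 at -0.54 (adjusted p = 0.14). Myoblast markers had 0 of 20 called (4 above, 7 below, median -0.03), with the differentiation inhibitors Id3 at -0.49 (adjusted p = 0.092) and Id1 at -0.34 (adjusted p = 0.29), Heyl at 0.30 (adjusted p = 0.43) and Chrdl2 at 0.35 (adjusted p = 0.47). Cell cycle genes had 0 of 34 called (15 above, 3 below, median 0.08 made of 0.16 and 0.01, and -0.02 without scrambled palmitate), with the ribonucleotide reductase subunit Rrm2 at 0.35 (adjusted p = 0.15), the replication helicase genes Mcm5 at 0.39 (adjusted p = 0.35) and Mcm3 at 0.34 (adjusted p = 0.41), and Cdk2 at 0.26 (pairs 0.04 and 0.48, adjusted p = 0.47). Fibroblast and matrix markers had 1 of 28 called higher and 0 lower (8 above, 6 below, median 0.01, and -0.02 after median centring). The called gene was the matrix glycoprotein gene Tnc at 0.60 (SE 0.10, adjusted p = 0.042), while Lum stood at 0.39 (adjusted p = 0.34), Mmp2 at 0.25 (adjusted p = 0.40) and Col1a1 at -0.19 (pairs -0.09 and -0.29, adjusted p = 0.49).

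Insulin signalling and glucose uptake genes had 0 of 33 called, 8 above and 8 below 0 in both pairs, and a median of 0.00; the kinase Akt2 stood at -0.27 (adjusted p = 0.33), Pik3cb at 0.26 (adjusted p = 0.42), Igf1r at -0.25 (adjusted p = 0.48) and the insulin-regulated glucose transporter gene Slc2a4 at -0.38 (pairs -0.86 and 0.10, adjusted p = 0.61). Lysosome and autophagy genes had 0 of 25 called, 4 above (16%) and 14 below (56%), and a median of -0.10. Their median level was 9.47, and of the 6646 brightest genes 24.8% stood above and 31.1% below. The part of level was not tested. The hexosaminidase gene Hexa stood at -0.33 (adjusted p = 0.12), the cathepsin gene Ctsd at -0.15 (adjusted p = 0.48), Gabarapl1 at 0.22 (adjusted p = 0.48) and Map1lc3a at 0.23 (pairs 0.07 and 0.38, adjusted p = 0.48). Apart from the sterol enzyme lists, the medians of the 24 lists lay between -0.16 and 0.13.

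**Figure D5:**
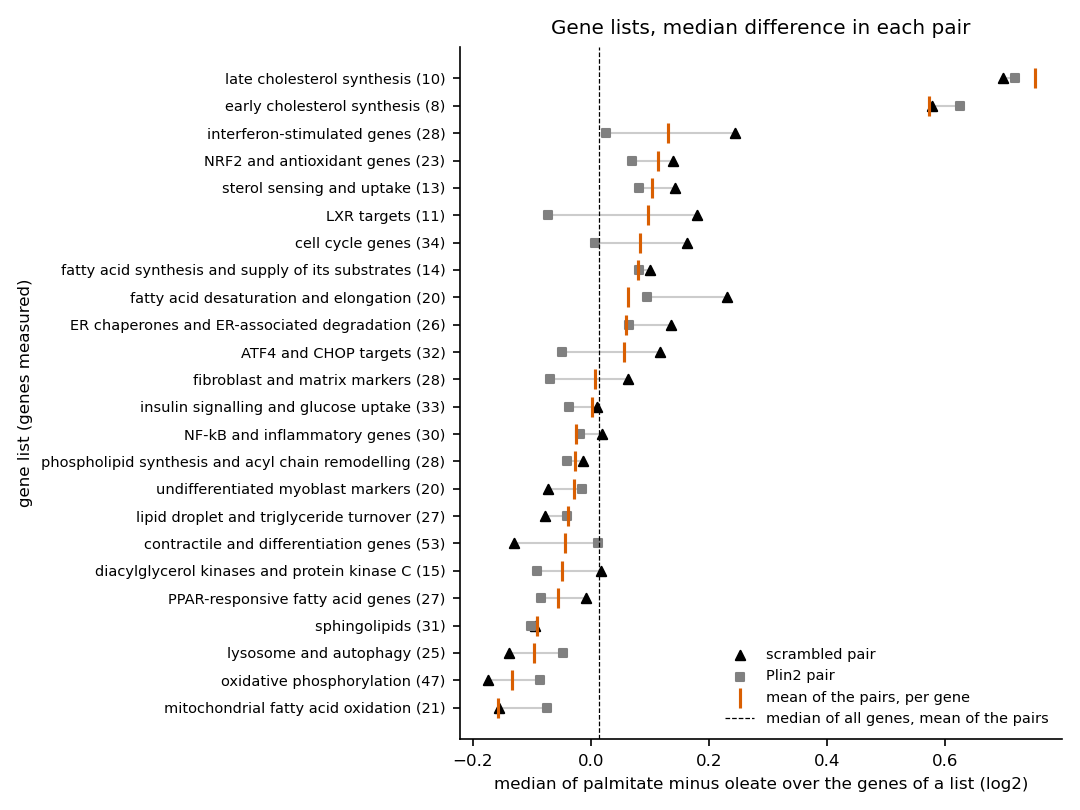
Median palmitate minus oleate (x axis, log2) of each of the 24 gene lists (y axis, with the genes measured), as triangles for the scrambled pair, squares for the Plin2 siRNA pair and a bar for the mean of the pairs; the dashed line is the median of all genes. The early and late cholesterol synthesis lists stand at 0.57 and 0.75, and every other list at -0.16 to 0.13.

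Among called genes outside the lists, those higher with palmitate included the connexin gene Gja5, which measured 8.57 in BSA, 7.64 in oleate and 8.45 in palmitate with scrambled siRNA, against 8.15, 7.05 and 8.54 with Plin2 siRNA. Its difference was 1.15 (SE 0.14, adjusted p = 0.0068), and oleate was the lowest array of either siRNA. Rrad, a small GTPase gene that restrains calcium channels, measured 10.41 in BSA, 9.97 in oleate and 10.76 in palmitate with scrambled siRNA, against 8.58, 8.41 and 9.21 with Plin2 siRNA. It differed by 0.80 (SE 0.09, adjusted p = 0.0038). Palmitate was above BSA and oleate below it with either siRNA, although the levels lay well apart between the siRNAs. The lysophospholipid carrier Mfsd2a differed by 0.75 (pairs 1.04 and 0.46, SE 0.13, adjusted p = 0.048) and the stress gene Gadd45g by 0.63 (SE 0.10, adjusted p = 0.030). The repressor Bhlhe40 differed by 0.56 (pairs 0.37 and 0.74, SE 0.10, adjusted p = 0.048). The activin-binding protein gene Fstl3 stood higher by 0.61 (SE 0.10, adjusted p = 0.048) and the small heat shock protein gene Hspb1 by 0.45 (SE 0.07, adjusted p = 0.036), with 0.40 (adjusted p = 0.057) at its second probe set. Serpinb9e differed by 1.16 (pairs 1.63 and 0.70, SE 0.20, adjusted p = 0.048) at a mean level of 5.53, below the median gene level. But it belongs to a cluster of closely related serpins that a probe set may not tell apart. Zfp459 differed by 0.83 (SE 0.13, adjusted p = 0.036) at a mean level of 3.67, among the dimmest genes. R3hdml (0.56), C1qtnf3 (0.51) and Klhl30 (0.45) were also called.

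Lower genes outside the lists included the transferrin receptor gene Tfrc, which brings iron into cells and measured 11.67 in BSA, 12.09 in oleate and 11.08 in palmitate with scrambled siRNA, against 12.39, 12.56 and 12.06 with Plin2 siRNA. Its difference was -0.76 (SE 0.10, adjusted p = 0.011), and palmitate was the lowest array in either siRNA. Igfbp5, a binding protein of insulin-like growth factors made by muscle cells, measured 11.24 in BSA, 11.57 in oleate and 10.90 in palmitate with scrambled siRNA, against 11.997, 12.22 and 11.56 with Plin2 siRNA. The gene differed by -0.67 (SE 0.07, adjusted p = 0.002), and its relative Igfbp6 differed by -0.47 (SE 0.08, adjusted p = 0.040). For Tfrc and Igfbp5 oleate lay above BSA and palmitate below in both siRNAs. Fsd2 measured 6.21 in BSA, 6.90 in oleate and 5.30 in palmitate with scrambled siRNA, against 7.05, 7.21 and 6.49 with Plin2 siRNA. Its difference was -1.17 (SE 0.17, adjusted p = 0.026), and the choline transporter family gene Slc44a4 differed by -1.07 (SE 0.18, adjusted p = 0.042). The sterol transfer protein gene Gramd1b, whose product moves cholesterol from the plasma membrane, differed by -0.88 (SE 0.15, adjusted p = 0.042). The acyltransferase gene Lpgat1 differed by -0.60 (SE 0.10, adjusted p = 0.048), and the prostaglandin receptor gene Ptgfr by -0.65 (SE 0.10, adjusted p = 0.026). Others with called differences were Cd28 (-1.14), Mamdc2 (-1.03), Galnt5 (-0.92), Mfsd7a (-0.88), Fam102b (-0.84), Ralgps2 (-0.82), Gpr146 (-0.74), Sfrp2 (-0.66), Tmem50b (-0.63), Tmem120b (-0.62) and Acvr2a (-0.50). Cd28 and Galnt5 were dim, at mean levels of 5.53 and 5.10, below the median gene level of 5.75. With Plin2 siRNA, Cd28 was also below BSA in oleate, by -0.21.

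The pairs contributed unequally to the lower genes. For 24 of the 26 the difference was larger in the scrambled pair, with a median of -0.997 against -0.58 with Plin2 siRNA, while for the 30 higher genes 17 were larger in the scrambled pair, with medians of 0.76 and 0.71. The lowest correlations between arrays, 0.987 and 0.988, were those of the scrambled palmitate array with the Plin2 siRNA arrays. With the scrambled BSA and oleate arrays its correlations were 0.993 and 0.991. Called with each of the 4 fatty acid arrays left out in turn were 14 of the 30 higher genes (Fads2, Gja5, Nsdhl, Insig1, Tm7sf2, Hsd17b7, Rrad, Cyp51, Fdps, Scd2, Mvd, Msmo1, Fdft1 and Scd1) and 6 of the 26 lower genes (Tmem50b, Igfbp5, Tfrc, Fam102b, Rnf145 and B4galt5). Each fit without a fatty acid array had 1 residual degree of freedom and left 1 array for that treatment. The prior degrees of freedom were 562 without scrambled oleate and 377 without Plin2 siRNA oleate, against 9.21 in the main fit. Without an oleate array the error thus came almost wholly from other genes, and a call there says little about the gene's own spread. Whether the effect of palmitate against oleate differs between the siRNAs cannot be tested with 1 array a condition.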

How the data were processed

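The deposited values are log2 expression values, 1 for each of 35556 probe sets on 6 Affymetrix whole-transcript arrays hybridised with cDNA made from 100 ng of total RNA. RMA, a method of background correction, normalization and probe summary, was used, per the submitters' processing notes. Its version was not stated in the labels, and base 2 was inferred from the method and from the value range. The values were used as deposited. In GEO's platform annotation 21789 probe sets had 1 gene symbol, 1621 had more and 12146 were not listed; of the first, 21698 were matched by Entrez ID to a RefSeq gene table and 0 symbols changed. This gave 19938 genes, of which 999 had several probe sets.

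The limma package 3.58.1 (R 4.3.3) was fitted to all 6 arrays, with terms for the treatment and the siRNA and moderation along an intensity trend, which left 2 residual and 9.21 prior degrees of freedom. The code of the fit was tested on simulated data drawn with the spread that the fit estimated. That test therefore does not show whether the estimated spread is right. Adjustment was by Benjamini-Hochberg across all 21789 probe sets with 1 symbol, at a threshold of 0.05. Every adjusted p comes from this fit, and intervals are 95% confidence intervals. The difference in 1 siRNA is a value with no test.

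The comparison and the 24 gene lists were chosen with earlier results of these data known. The rule for naming genes took up to 15 called genes with the largest difference in each direction, every called member of a list, the members with the lowest p-values to make 4 a list, Plin2, Angptl4, Cpt1a and Pdk4. The other called genes and the other list members named were added after their values were seen. The alternatives were the 4 fatty acid arrays alone, other settings of the moderation, all probe sets, a filter on low signal, other scalings, other ways of giving a gene by its probe sets, and leaving out each array.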

Additional observations from a re-analysis of the deposited data

Results flagged for a closer look

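With 1 array a condition the following differences between the siRNAs were not tested; each is a case where the scrambled pair and the Plin2 siRNA pair went opposite ways. Among gene lists, the median of the scrambled pair minus that of the Plin2 siRNA pair was 0.253 for LXR targets, 0.165 for ATF4 and CHOP targets, 0.132 for fibroblast and matrix markers, 0.109 for diacylglycerol kinases and protein kinase C, 0.0479 for insulin signalling and glucose uptake, 0.0380 for NF-kB and inflammatory genes and -0.142 for contractile and differentiation genes. Over all genes the medians of the pairs were 0.04 and -0.01.

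Among genes above the median level, Cd24a, a surface glycoprotein gene, had the widest gap, -2.28. It measured 7.83 in BSA, 8.13 in oleate and 6.06 in palmitate with scrambled siRNA, and 6.75, 6.96 and 7.17 with Plin2 siRNA, so the scrambled palmitate array was the lowest of the 6. The gap was -1.58 for Zfp935, -1.36 for the small nucleolar RNA gene Snord42b, -1.35 for the potassium channel gene Kcnj2, -1.22 for Smim5 and -1.20 for the chemokine gene Cxcl13. It was 1.47 for Olfr1347 and 1.47 for Macrod2. Scrambled palmitate was also the lowest array of Zfp935, Snord42b, Kcnj2 and Cxcl13. Plin2, the target of the siRNA, had a gap of 0.252, with 0.07 in the scrambled pair and -0.18 in the Plin2 siRNA pair.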

How the results depend on the processing

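The fit called 57 probe sets. It called 86 with the 4 fatty acid arrays alone, 25 after quantile normalization, and 0 with no intensity trend, with all probe sets or with no moderation (1686, 1235 and 1306 at an unadjusted p under 0.05, against 2007). For genes, 56 became 24 after quantile normalization and 0 in the other 3 settings. Prior degrees of freedom were 7.33 after quantile normalization, against 9.21 in the main fit. They were 5.50 with no trend, 3.54 with all probe sets and 0 with no moderation. The cause of the lower counts was not tested. Leaving out 1 array gave 30 to 538 probe sets and 28 to 462 genes; each such fit has fewer residual degrees of freedom. Of the 56 genes, 54 were called with the 4 arrays alone, 53 with a robust prior, 55 with the dimmest probe sets left out, where Zfp459 could not be tested, 38 after median centring, 22 without scrambled palmitate, 47 without scrambled oleate, 53 without Plin2 siRNA palmitate and 56 without Plin2 siRNA oleate. None of the 56 changed direction in any of these settings. Only the scalings, the mean over probe sets and leaving out a fatty acid array could move the estimates. The other settings alter the spread or the adjustment alone, so direction could not change in them. The median of late cholesterol synthesis, 0.75, was 0.725 after median centring and 0.673 to 0.793 with 1 array left out; that of early synthesis was 0.550 to 0.679. The difference of Plin2 changed sign without Plin2 siRNA palmitate, to 0.0836 (adjusted p = 0.75), and was -0.197 to 0.0836 over the arrays left out. Among list medians near 0, that of the insulin list changed sign with both scalings. The labels give no replicate numbers; the arrays are paired by siRNA, which is a term of every fit. With 2 pairs, small differences between the fatty acids may have been missed.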
